A study of Mus musculus with 10 samples.

Results

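The collagen genes were followed through the chemical conversion of mouse embryonic fibroblasts (MEFs) into cells that resemble extraembryonic endoderm (XEN). They were chosen by name, as every gene whose symbol is Col, a number, a and a number, which gave 44 of the 23197 genes counted. The pattern uses no measured value. By the structure of their proteins, 11 were fibrillar collagens, 6 type IV, 6 type VI, 9 FACITs (collagens that decorate fibrils), 4 transmembrane collagens, 3 short chain network collagens, 2 multiplexins and 1 anchoring fibril collagen. The remaining 2, *Col26a1* and *Col28a1*, were grouped as other.

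MEFs were taken from mid-gestation embryos of ICR mice after removal of head, limbs and viscera, so d0 can hold several mesenchymal cell types. They were treated with the cocktail C6FAE, which holds CHIR99021 (a GSK3 inhibitor), RepSox (an inhibitor of the TGF-β receptor ALK5), Forskolin (which raises cAMP), AM580 (a retinoic acid receptor agonist) and EPZ004777 (a Dot1L inhibitor), in medium with serum and bFGF. The labels name C6FAE, whereas the general recipe in the study's methods also holds valproic acid. No untreated culture was followed beside the course, so cocktail and time in culture cannot be told apart. Single cells were picked by hand before treatment (d0, 72 cells kept) and at d1 (40 cells), d2 (83), d3 (38), d4 (77), d5 (36), d6p (86), d8 (62), d12 (67) and d20 (38). The meaning of the p in d6p is not stated. The groups d8c (20 cells) and d12c (51 cells) hold cells picked from colonies.

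Collagens are secreted proteins whose chains wind around each other in a helix of repeated glycine triplets. Fibrillar collagens assemble outside the cell into the banded fibrils of connective tissue and are a hallmark of fibroblasts, whereas type IV collagen forms the sheet-like network of basement membranes. Extraembryonic endoderm lays down a thick basement membrane rich in type IV collagen and laminin in the embryo.

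RNA molecules were counted by unique molecular identifiers (UMIs), and levels are given per 1000000 UMIs of a cell (CPM) with spike-in RNAs left out. UMIs count molecules and were not divided by transcript length. Among cells with at least 4000 detected genes, 670 of 808 cells were kept, with 17633 to 6004860 UMIs each and a median of 510306. The median depth was 344196 UMIs at d0, 768565 at d12 and 195480 at d20, and the filter removed 34 of 72 cells at d20. Cells could not be traced to the 10 sequenced samples, so all cells count as 1 sample and no test was made between time points. Intervals are given at 95% (exact Poisson for UMIs, Clopper-Pearson for shares of cells) and cover counting error only. Spike-in RNA became a larger part of the libraries with time, with a median of 29.5 UMIs per spike-in UMI at d0, 8.06 at d12 and 4.19 at d20. Summed CPM of 9 fibroblast markers averaged 1710 at d0, 6282 at d12 and 280.2 at d20, and those of 9 XEN markers 58.3, 148.1 and 1494. Only *Pdgfra* of the fibroblast markers was higher at d20 (200.9 CPM) than at d0 (28.2), and it was most of the d20 sum. *Fbln2*, *Postn* and *Pdgfrb* were lower at d12 than at d0, and the others higher. Of the XEN sums, *Dab2* held 55.1 CPM at d0 and *Sox17* 982 at d20, where *Amn* was at 0.60. Marker lists of blood, endothelial, Schwann, chondrocyte and keratinocyte genes had group means of at most 59.7 CPM from d0 to d12, d8c among them. In d12c cells 1 to 24 keratinocyte genes averaged 79.5 CPM, with the highest cell at 840. Muscle genes averaged 345.9 CPM at d0, with 1 cell at 23295, and 549.4 CPM in d12c cells 1 to 24, with 1 cell at 10869. Osteoblast genes averaged up to 775 CPM, at d6p. The pan-blood marker *Ptprc* was at or under 0.1 CPM throughout, but other genes of the blood list were detected. *Cd68* was at 21.6 CPM in d8c and 17.9 at d12, with a UMI in 46 of 67 d12 cells. *Csf1r* was at 13.4 CPM in d12c and 6.36 at d12, with a UMI in 43 of 67 d12 cells. *Adgre1* was highest at d4, with 0.18 CPM.

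Each of the 44 collagen genes had a UMI in some kept cell. A mean of at least 1 CPM at some time point was reached by 43 of them, and 28 reached 10 CPM. At d20 only 16 were at 1 CPM or more and 4 at 10 CPM or more, namely *Col4a1*, *Col4a2*, *Col6a1* and *Col6a2*. Both type VI values rest on few cells, and without its highest cell *Col6a2* was at 4.22 CPM. Summed over all 44 genes, the mean was 4024 CPM at d0, 1332 at d1, 13685 at d8, 9898 at d12 and 1268 at d20. Fibrillar collagens made up 76.0% of this mean at d0, 77.9% at d12 and 2.56% at d20. The type IV share was 6.60%, 2.84% and 91.8% at the same time points.

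**Figure D1:**
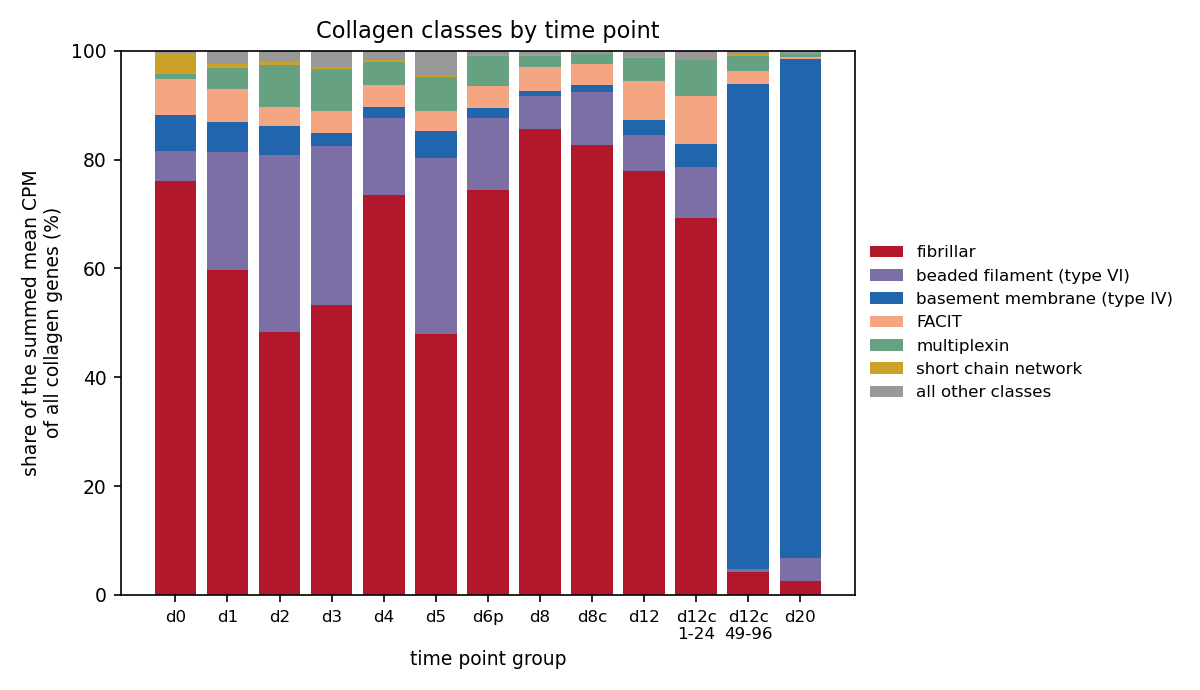
Share of each collagen class in the summed mean CPM of all 44 collagen genes (vertical axis, percent) for each time point group (horizontal axis); the colony group d12c is split by the running number of its cells. Fibrillar collagens make up 47.996% to 85.6% of the bar from d0 to d12, and type IV collagens make up 89.1% in d12c cells 49 to 96 and 91.8% at d20.

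The fibrillar sum dropped early, climbed to a maximum at d8 and was nearly gone at d20. Its mean was 3058 CPM at d0, 795 at d1, 779 at d2, 1920 at d3, 3427 at d4, 3046 at d5, 8212 at d6p, 11712 at d8, 7708 at d12 and 32.5 at d20. Over single cells it ran from 40.2 to 8356 CPM with a median of 2639 at d0. At d12 it ran from 375 to 45980 with a median of 5321, and at d20 from 0 to 425 with a median of 7.84. The highest d20 cell lay above the lowest 2 d12 cells, and the other 37 d20 cells lay below every d12 cell. No fibrillar UMI was found in 16 of the 38 d20 cells.

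**Figure D2:**
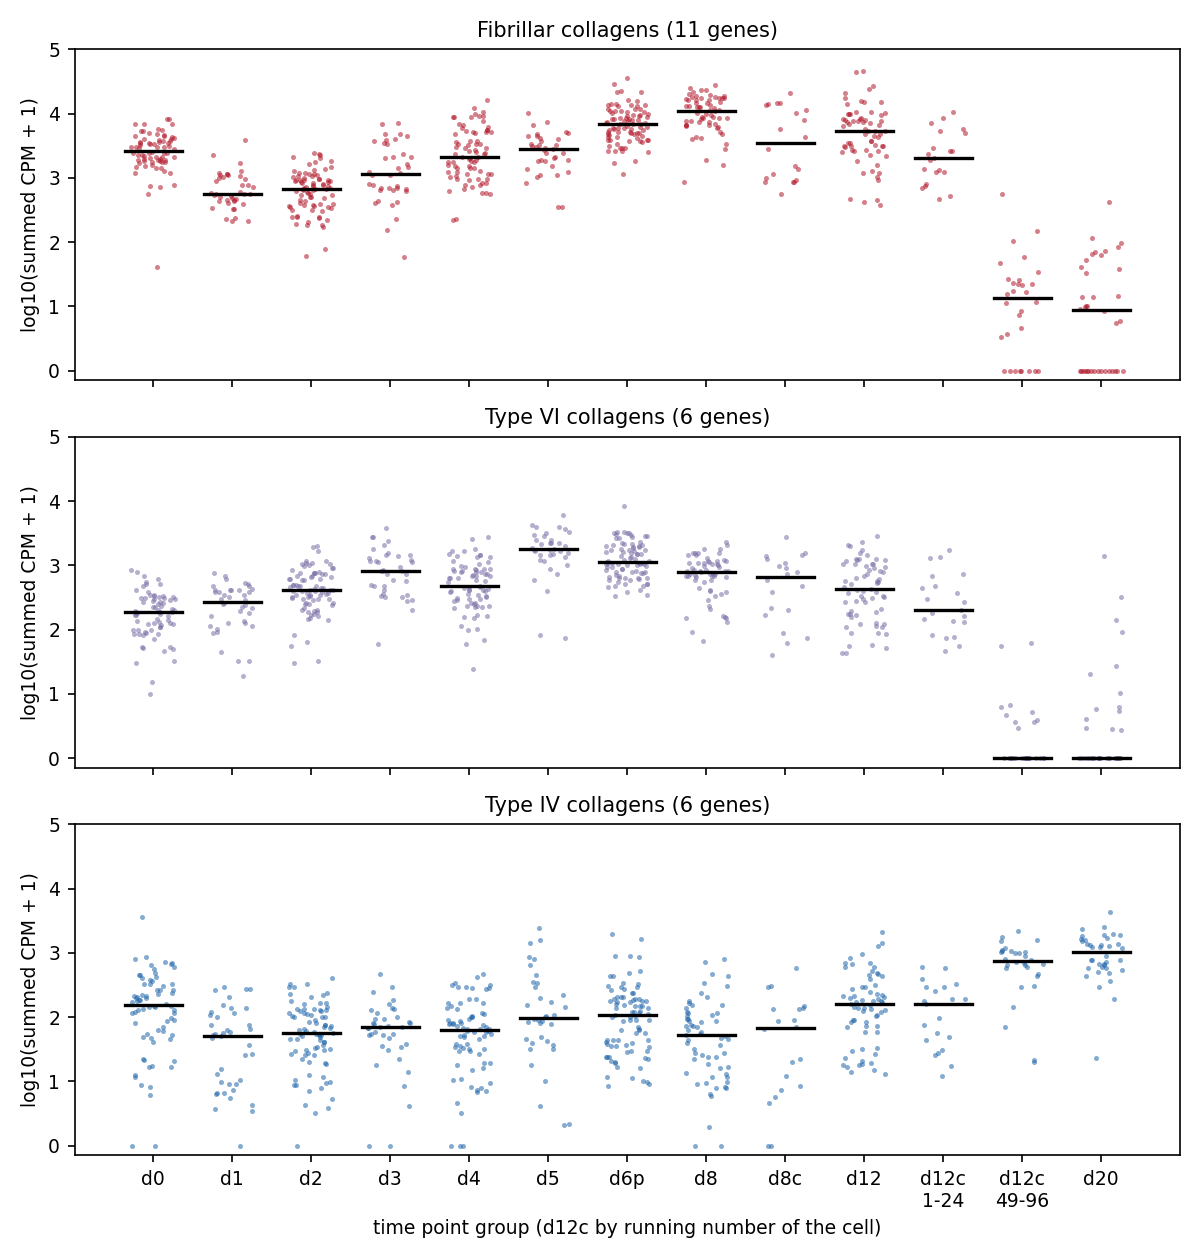
Summed CPM of the fibrillar, type VI and type IV collagen genes in each kept cell, as log10(CPM + 1) on the vertical axis, by time point group on the horizontal axis; each point is a cell and each black line the median of its group. The fibrillar medians are 2639 CPM at d0, 11098 at d8 and 7.84 at d20, whereas the type IV median is 155 at d0 and 1042 at d20.

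The bulk of these UMIs came from *Col1a1* and *Col1a2*, the chains of type I collagen, and *Col3a1*, the chain of type III collagen that mixes into the same fibrils. *Col1a1* (chr11:94797538-94814356 in mm9, 51 exons) had a mean of 1237 CPM at d0, 317 at d1, 271 at d2, 665 at d3, 1471 at d4, 1137 at d5, 3371 at d6p, 5267 at d8, 3856 at d12 and 3.63 at d20. Over cells the lowest, median and highest values were 32.2, 1046 and 4515 CPM at d0, and 195.7, 2173 and 26278 at d12. At d20 the lowest and the median were 0 and the highest was 118. The d20 maximum thus lay under the d12 minimum. At d20 its 52 UMIs (interval 38.8 to 68.2) came from 5 of 38 cells (13.2%, interval 4.41% to 28.1%), against all cells at d0 and d12. With each cell thinned to 50000 UMIs the shares were 5.56% at d20 and 100% at d0 and d12.

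*Col1a2* (chr6:4454814-4491543) was at 897 CPM at d0, 219 at d1, 1860 at d6p, 2667 at d8, 1518 at d12 and 7.86 at d20. It kept a UMI in 12 of 38 d20 cells. *Col3a1* (chr1:45368383-45406551) was at 393 CPM at d0, 109 at d1, 2069 at d6p, 2732 at d8, 1669 at d12 and 8.46 at d20, with UMIs in 4 d20 cells. *Col3a1* therefore stood further above its d0 level at d12 than the type I chains did.

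The windows before the starts of *Col1a2* and *Col3a1* are shown because both genes were highest at d8 and far lower at d20, and that of *Col6a1* because it followed another course. Each is the 250 bases before the RefSeq start in GRCm38.p6, a later build than that of the counts, and capitals mark the TATA box (letters TATAAA), the CCAAT box (letters CCAAT) and the GC box (letters GGGCGG) on either strand. The *Col1a2* window (chr6:4505368-4505617, plus strand) holds a CCAAT box, 109 bases before the start, and 2 GC boxes, the farther at 205. The *Col3a1* window (chr1:45311288-45311537, plus strand) holds a TATAAA that begins 117 bases before the start. Whether it acts as a TATA box was not tested. The *Col6a1* window (chr10:76726045-76726294, minus strand) holds none of these letters.
Col1a2: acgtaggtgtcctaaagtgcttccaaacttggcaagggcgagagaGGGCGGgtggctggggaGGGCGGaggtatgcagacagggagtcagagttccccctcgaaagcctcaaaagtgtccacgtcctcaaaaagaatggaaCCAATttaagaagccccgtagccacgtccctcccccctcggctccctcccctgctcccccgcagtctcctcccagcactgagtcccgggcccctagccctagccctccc
Col3a1: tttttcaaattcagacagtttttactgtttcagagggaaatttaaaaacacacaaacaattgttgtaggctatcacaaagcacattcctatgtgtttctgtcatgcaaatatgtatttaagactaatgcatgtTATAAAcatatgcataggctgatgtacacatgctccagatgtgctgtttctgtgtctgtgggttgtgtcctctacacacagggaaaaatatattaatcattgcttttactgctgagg
Col6a1: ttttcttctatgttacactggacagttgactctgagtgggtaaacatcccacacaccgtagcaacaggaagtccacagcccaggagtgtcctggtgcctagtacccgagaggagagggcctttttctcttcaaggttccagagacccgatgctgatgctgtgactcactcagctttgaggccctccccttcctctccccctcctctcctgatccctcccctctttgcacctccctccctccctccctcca
RefSeq promoter entries were found for 35 of the 44 collagen genes, 38 entries in all. GGGCGG stood in 57.9% of these windows and in 32.7% of all 32851 windows of the same length. CCAAT stood in 34.2% against 33.8%, and TATAAA in 13.2% against 12.4%. A match describes letters and not binding.

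*Col5a1* and *Col5a2*, the chains of type V collagen that starts and limits type I fibrils, followed the same course. *Col5a2* was at 340 CPM at d0, 65.98 at d1, 634 at d8, 444 at d12 and 2.38 at d20. *Col5a1* was at 94.6, 34.6, 209.8, 146 and 8.05 CPM at these time points. *Col5a3*, a less common type V chain, stayed between 0.64 and 24.7 CPM from d0 to d12.

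*Col11a1*, a chain of the related type XI collagen of cartilage, had 46.4 CPM at d0, 4.98 at d1 and 147 at d8, where 91.9% of cells held a UMI (62.7% after thinning). *Col24a1* and *Col27a1*, which resemble fibrillar collagens of invertebrates, were low at d0 (2.00 and 5.12 CPM) and highest at d6p (66.8) and d5 (36.8). Without its highest cell, which held 2437 CPM, the d6p mean of *Col24a1* was 39.0 CPM. *Col2a1*, the main chain of cartilage collagen, was the exception among fibrillar genes, with 33.6 CPM at d0 and at most 6.25 CPM later. Its d0 level came from 22 of 72 cells, and without its highest cell (1043 CPM) it was 19.4 CPM. The 6 cartilage markers summed to 27.9 CPM at d0, with *Sox9* at 21.4 CPM in 34 cells, *Hapln1* at 3.90, *Matn3* at 1.67, *Acan* at 0.97 and *Matn1* and *Comp* at 0. Their part in the *Col2a1* level was not tested. *Col11a2*, the last fibrillar gene, reached 2.10 CPM at most.

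**Figure D3:**
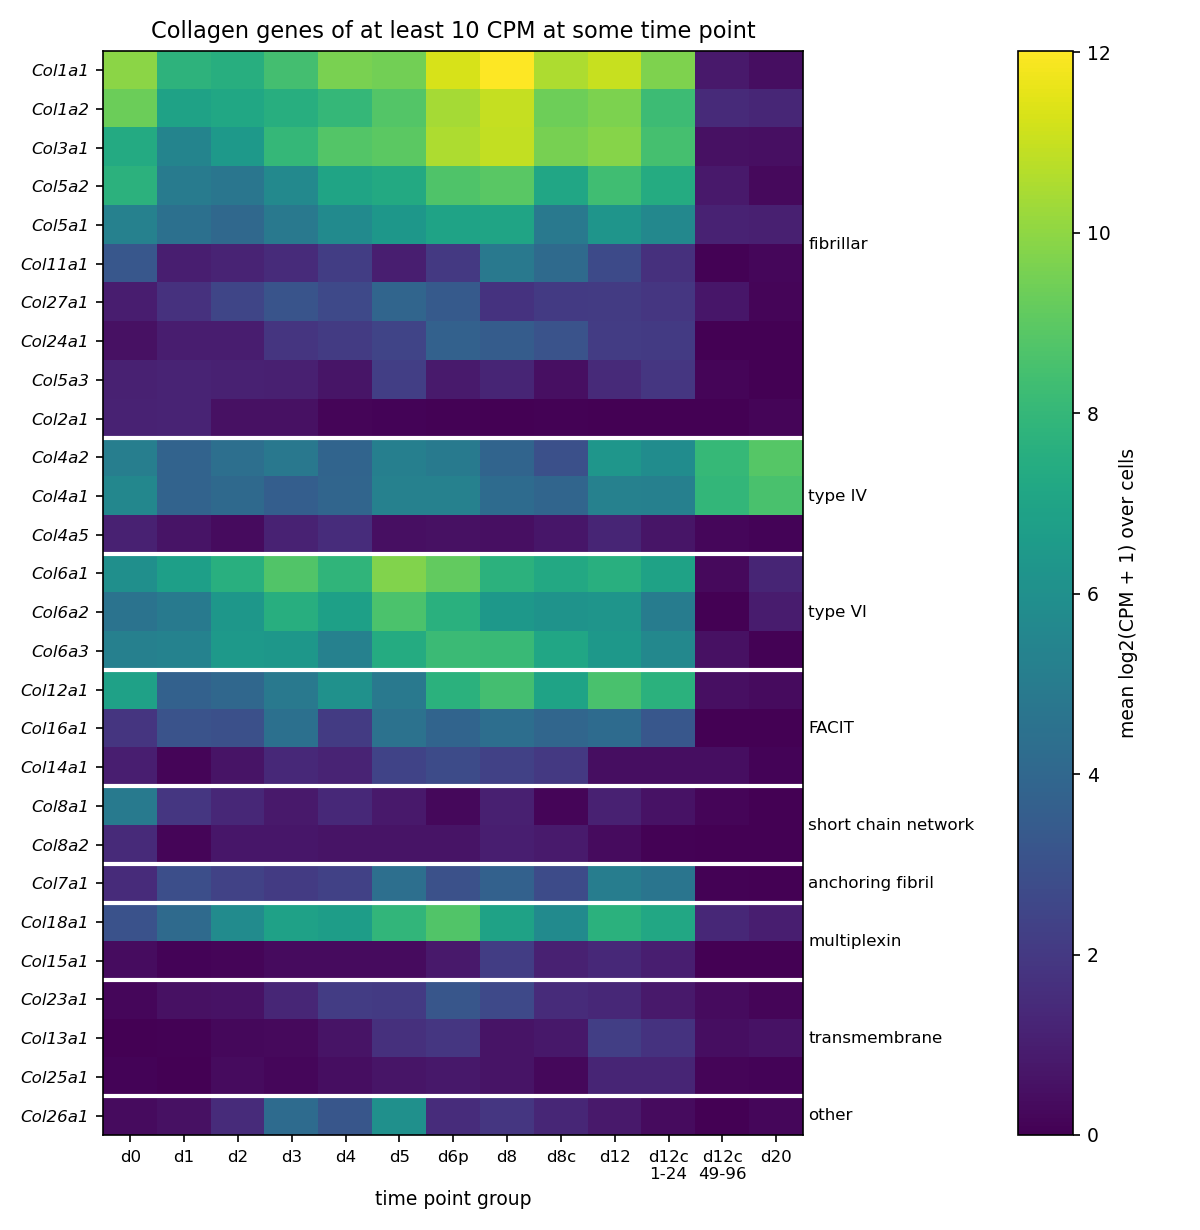
Mean log2(CPM + 1) over cells (colour) of the 28 collagen genes that reached 10 CPM at some time point (rows, by class) in each time point group (columns; d12c split by the running number of its cells). *Col1a1*, *Col1a2* and *Col3a1* are brightest at d8, *Col6a1* at d5, *Col26a1* at d5, and only *Col4a1* and *Col4a2* are bright in the last 2 columns.

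Among the type IV genes, *Col4a1* and *Col4a2* were lower at d1 than at d0, as the fibrillar sum was, and highest at d20. *Col4a1* and *Col4a2* encode the chains of the common basement membrane network. *Col4a1* was at 148 CPM at d0, 35.3 at d1, 41.2 at d2, 28.9 at d3, 44.1 at d4, 131 at d5, 95.2 at d6p, 48.3 at d8, 99.7 at d12 and 517 at d20. Over cells the lowest, median and highest were 0, 64.8 and 2783 CPM at d0, and 13.5, 504 and 1531 at d20. *Col4a2* was at 107 CPM at d0, 35.4 at d1, 50.0 at d8, 177 at d12 and 641 at d20, with a median of 48.1 at d0 and 491 at d20. Every d20 cell held UMIs of both genes, yet the ranges of d0 and d20 cells overlapped. At d20 the 3692 UMIs of *Col4a1* gave 419 CPM over the pooled cells (interval 406 to 433), below the mean over cells.

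The size of this gain depends on the scale. Relative to spike-in RNA instead of all UMIs, the mean type IV sum was 464 at d0, 112 at d12 and 243 at d20, so that it was lower at d20 than at d0 and still higher than at d12. On this scale the mean log2 difference from d0 to d20 was 0.36 for *Col4a1* and 1.09 for *Col4a2*, against 2.995 and 3.73 with CPM. The amount of spike-in RNA added per cell is not given in the sources used here. The fibrillar sum was highest at d6p on the spike-in scale, at 12452 against 10081 at d8, and was 10.7 at d20.

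**Figure D4:**
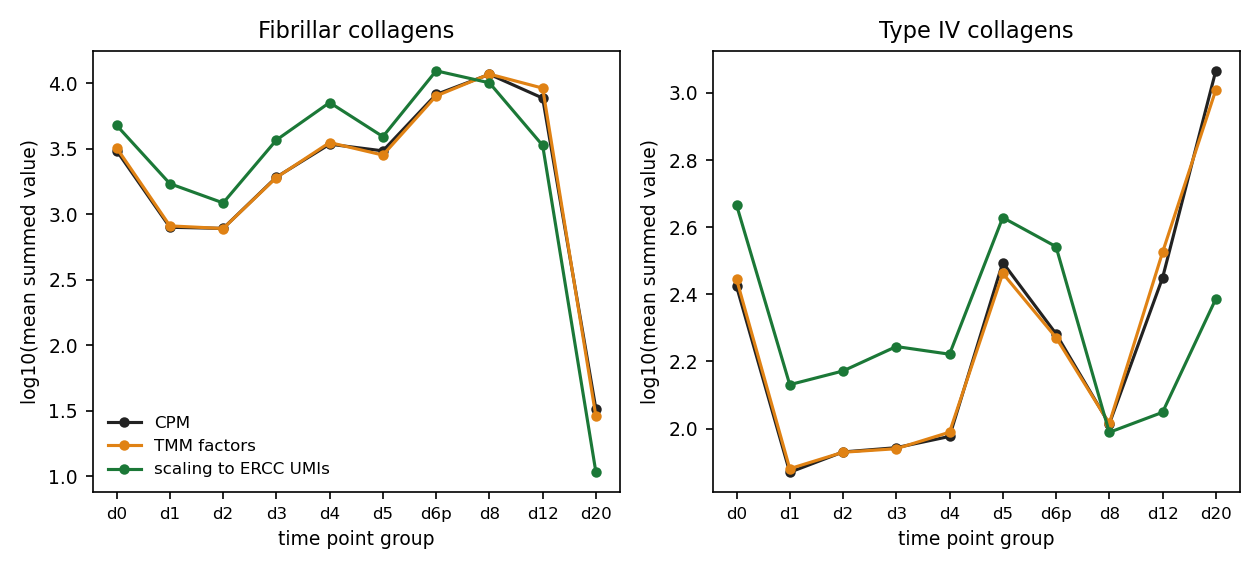
Mean summed value of the fibrillar (left) and type IV (right) collagen genes over the kept cells of each time point, as log10 on the vertical axis, after scaling to all UMIs (CPM, black), with TMM factors (orange) and to spike-in UMIs (green, set to the CPM scale by the median cell). The fibrillar fall to d20 is present on each scale, whereas the type IV mean at d20 is above d0 with CPM (1163 against 265) and below it with spike-in scaling (243 against 464).

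*Col4a1* and *Col4a2* lie head to head on chromosome 8 (mm9, 11198423 to 11312826 on the minus strand and 11312805 to 11449287 on the plus strand), and their annotated gene bodies overlap by 22 bases. Whether the counting used strand is not given in the sources used here, so reads within these bases could be counted for either gene. The other type IV genes lie in pairs of the same kind, *Col4a4* and *Col4a3* with 71 bases between them on chromosome 1 and *Col4a6* and *Col4a5* with 1308 on the X chromosome. These pairs encode the chains of specialised basement membranes such as that of the kidney filter. They stayed at or under 10.9 CPM. *Col4a5* was highest at d4 with 10.9 CPM and at 0.94 CPM at d20. *Col4a3* and *Col4a4* reached 1.90 and 2.61 CPM at d20, where they were highest, from 2 cells and 1 cell, and *Col4a6* had 2.35 CPM at d0 and 0 UMIs at d20.

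Type VI collagen forms beaded filaments around cells, from the chains of *Col6a1*, *Col6a2* and *Col6a3*. Its sum peaked earlier than the fibrillar sum, with means of 227.4 CPM at d0, 289 at d1, 524 at d2, 1048 at d3, 662 at d4, 2052 at d5, 1476 at d6p, 847 at d8, 648 at d12 and 52.9 at d20. Without the d20 cell of highest type VI sum (1378 CPM) the d20 mean was 17.1 CPM. *Col6a1* was at 98.1 CPM at d0, 1197 at d5, 301 at d8, 341 at d12 and 41.9 at d20. The d20 value came from 10 of 38 cells and was 12.8 CPM without the highest of them (1120 CPM). *Col6a2* was at 52.6 CPM at d0, 541 at d5, 139 at d8, 146 at d12 and 10.9 at d20.

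*Col6a3*, the longest chain, peaked later, with 72.4 CPM at d0, 315 at d5, 457 at d6p, 407 at d8, 160 at d12 and 0.08 at d20, where 1 UMI was left. From d0 to d1, when the type I chains were lowered, the mean log2 differences of *Col6a1*, *Col6a2* and *Col6a3* were 0.83, 0.34 and 0.10. The alternative chains *Col6a4*, *Col6a5* and *Col6a6* stayed at or under 4.32 CPM in every group, and *Col6a4* was the only collagen gene that reached 1 CPM nowhere. Osteoblast markers had a summed mean of 4.4 CPM at d0, 759 at d5, 775 at d6p and 103 at d8, most of it *Ibsp*. This sum was highest at d6p, after the d5 maximum of type VI. Its median over cells was 40.0 CPM at d5 and 112 at d6p. *Sp7*, a factor of early osteoblasts, had 45.8 CPM at d5 and 35.6 at d3, against 7.92 at d4, 1.30 at d0 and 0.82 at d6p. *Bglap* and *Dmp1* were at 0 CPM at d5 and at or under 6.8 and 0.8 CPM in all groups. The part of cells with these markers in the type VI values was not tested.

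Among the FACITs, which sit on fibril surfaces, *Col12a1* made up most of the UMIs, with 234 CPM at d0, 49.6 at d1, 538 at d8, 668 at d12 and 2.98 at d20. *Col16a1* had 10.5 CPM at d0, a maximum of 61.0 at d3, 39.1 at d12 and 0 UMIs at d20. *Col14a1* had 10.4 CPM at d0, 44.2 at d5, 35.1 at d8 and 3.91 at d12. In d12c cells 49 to 96 its mean of 19.5 CPM rested on 3 of 30 cells, the highest at 580 CPM. The other FACITs (*Col9a1*, *Col9a2*, *Col9a3*, *Col19a1*, *Col20a1* and *Col22a1*) stayed at or under 7.45 CPM.

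The multiplexins are basement membrane proteoglycans, and *Col18a1*, the source of endostatin, was not lower at d1 than at d0. It was at 36.03 CPM at d0, 51.1 at d1, 123 at d2, 277 at d3, 193 at d4, 393 at d5, 617 at d6p, 251 at d8, 407 at d12 and 6.49 at d20. Its median over cells went from 7.21 CPM at d0 to 478 at d6p and 0 at d20. A collagen of basement membranes thus was low at d20, where the type IV sum in CPM was at its highest. *Col15a1*, the other multiplexin, peaked at d8 with 20.5 CPM and had no UMI at d20.

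*Col7a1*, which anchors the basement membrane of skin to the dermis, was at 13.0 CPM at d0, 62.5 at d5 and 69.4 at d12, with a UMI in every d12 cell (72.7% after thinning) and in no d20 cell. *Col8a1*, a short chain collagen of vessel walls and cornea, was a gene of the starting cells, at 134 CPM at d0, 8.80 at d1, 11.9 at d12 and 0 UMIs at d20. No UMI in 38 cells allows a share of up to 7.89%, taking 3 cells as the limit. The exact interval used elsewhere would reach higher. Its partner chain *Col8a2* went from 13.5 CPM at d0 to 0.27 at d1. *Col10a1*, the remaining short chain network gene, stayed at or under 2.14 CPM.

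Of the transmembrane collagens, *Col13a1* was at 0.05 CPM at d0 and 19.0 at d12, *Col23a1* peaked at d6p with 35.7 CPM, and *Col25a1* was highest at d12 with 11.1 CPM. *Col17a1*, of skin hemidesmosomes, reached 1.20 CPM at most. *Col26a1* was highest at d5, with 1.36 CPM at d0, 1.48 at d1, 13.9 at d2, 86.4 at d3, 42.0 at d4, 198 at d5, 15.2 at d6p and 4.30 at d12. A UMI was found in 97.2% of d5 cells and 15.3% of d0 cells, or 74.3% and 4.23% after thinning. *Col28a1*, the other gene outside the classes, had 72 UMIs in 4 cells, all at d0.

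For comparisons between time points, the mean of log2(CPM + 1) over cells was taken for each group, and a gene was called higher or lower where this mean differed by more than 2, provided that either mean reached 1. From d0 to d1, 6 of 22 collagen genes fell and 0 rose, where 1.08% of all genes tested were lower and 2.12% higher. These were *Col12a1* (-3.14), *Col8a1* (-2.98), *Col5a2* (-2.72), *Col1a2* (-2.39), *Col11a1* (-2.25) and *Col1a1* (-2.16). They include 4 of the 9 fibrillar genes tested, and the median over the 22 genes was -0.83 against 0.43 over all genes. Each stayed negative with the 4 other scalings tried, and *Col1a1* no longer passed 2 with spike-in scaling (-1.86).

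From d1 to d8, 13 of 25 collagen genes rose and 0 fell, where 4.43% of all genes were higher and 7.13% lower. The largest differences were those of *Col3a1* (5.50), *Col12a1* (4.67), *Col1a1* (4.24), *Col1a2* (4.04), *Col5a2* (3.97) and *Col11a1* (3.86), and 7 of 10 fibrillar genes tested were among the 13. The median was 2.07 over the 25 genes and -0.33 over all genes. With spike-in scaling the 13 differences stayed positive, between 1.28 for *Col5a1* and 4.22 for *Col3a1*, and 6 of them were then under 2.

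From d0 to d12, 5 of 27 collagen genes rose, where 7.21% of all genes were higher, and 1 fell, where 4.19% were lower. *Col18a1* rose by 4.65, *Col7a1* by 3.61, *Col3a1* by 2.49, *Col16a1* by 2.34 and *Col13a1* by 2.18, and *Col8a1* fell by 3.802. *Col1a1* (1.08) and *Col1a2* (0.32) were not called, and their differences were -0.80 and -1.55 with spike-in scaling. On that scale only *Col18a1* (2.96) and *Col7a1* (2.19) of the 5 kept a difference over 2.

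From d0 to d20, 12 of 21 collagen genes fell, where 8.92% of all genes were lower, and 2 rose, where 4.38% were higher. The 12 were 6 of the 8 fibrillar genes tested, all 3 tested type VI genes, *Col12a1*, *Col18a1* and *Col8a1*. The largest falls were those of *Col1a1* (-9.50), *Col1a2* (-8.05), *Col5a2* (-7.42), *Col3a1* (-6.84), *Col12a1* (-6.54) and *Col6a3* (-5.17). *Col8a1*, without a UMI at d20, was at least 358-fold lower over the pooled cells, with 3 UMIs per group as the floor. The genes that rose were *Col4a2* (3.73) and *Col4a1* (2.995), neither of which passes 2 with spike-in scaling. The median was -3.05 over the 21 genes, or -4.20 with genes at 0 set to their bound, against -0.20 over all genes.

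From d12 to d20, 14 of 24 collagen genes fell, where 13.8% of all genes were lower, and 2 rose, where 6.78% were higher. *Col1a1* (-10.59), *Col3a1* (-9.32), *Col1a2* (-8.37), *Col12a1* (-8.199), *Col5a2* (-8.03) and *Col18a1* (-6.67) fell most. *Col7a1* was at least 206-fold lower and *Col16a1* at least 119-fold lower over the pooled cells, since neither had a UMI at d20. *Col4a1* rose by 3.28 and *Col4a2* by 2.53, and these differences were 2.31 and 1.63 with spike-in scaling. The median was -3.35 over the 24 genes, or -5.32 with genes at 0 set to their bound, against -0.20 over all genes. The comparisons with d20 share its cells, as those with d0 and d12 share theirs, so they are not independent of each other.

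Between cells picked from colonies at d8 and the other d8 cells, 1 of 24 collagen genes was lower (*Col5a1*, which fell by 2.16) and 0 were higher, where 0.765% of all genes were lower and 0.507% higher. With spike-in scaling 6 were lower by more than 2, between *Col5a1* (-2.68) and *Col3a1* (-2.01), with *Col1a1*, *Col1a2*, *Col5a2* and *Col12a1*. The share of all genes past 2 on that scale was not computed, so this count cannot be read as particular to collagen genes. UMIs per spike-in UMI had a median of 15.4 at d8 and 8.77 at d8c, so that scale lowers d8c values in general. The fibrillar mean was 6439 CPM in 20 d8c cells and 11712 in 62 d8 cells, and their ranges overlapped. The filter removed 45 of 96 d12c cells, and no kept cell was numbered between 24 and 49. Cells 1 to 24 and cells 49 to 96 differed, although their fibrillar sums overlapped. The lowest sum in cells 1 to 24 was 470 CPM, and the highest in cells 49 to 96 was 554. In the 21 kept cells numbered 1 to 24 the fibrillar mean was 3092 CPM and the type IV mean 184 CPM, and 0 of 24 collagen genes differed from d12 by more than 2, where 0.304% of all genes were lower and 0.0651% higher. In the 30 kept cells numbered 49 to 96 these means were 38.8 and 812 CPM. Against d12, 14 of 24 collagen genes fell there, where 14.2% of all genes were lower, and *Col4a1* rose by 2.67 (1.79 with spike-in scaling), where 5.61% of all genes were higher.

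*Col1a1* was 1468 CPM in cells 1 to 24 and 4.64 in cells 49 to 96, *Col3a1* 651 and 1.58, *Col6a1* 221 and 0.48, and *Col4a1* 73.8 and 402. From cells 49 to 96 to d20, 0 of 6 collagen genes tested differed by more than 2, where 1.65% of all genes were lower and 1.58% higher. The summed XEN markers averaged 387 CPM in cells 1 to 24, 1123 in cells 49 to 96 and 1494 at d20, and the fibroblast markers 5448, 317 and 280.2. The labels do not say whether number ranges are separate libraries or colonies, so library and cell state cannot be told apart here. At d4 the ranges also differed, with a fibrillar mean of 5290 CPM in 40 cells numbered 1 to 48 and 1412 in 37 cells of higher number. At d20 they were 38.8 CPM in 30 cells and 8.67 in 8. At d0, d2, d6p, d8 and d12 the fibrillar means of the ranges differed by less than 1.5 times.

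The fibrillar and type IV sums were also compared within single cells, and across the 67 d12 cells their Spearman correlation was -0.12. Type IV exceeded fibrillar in 0 of 72 d0 cells (interval up to 4.99%), in 3 of 67 at d12 (4.48%, interval 0.933% to 12.5%), in 28 of 30 d12c cells numbered 49 to 96 and in all 38 at d20 (interval 90.7% to 100%). With a limit of 500 CPM chosen after the values were seen, 4 of 67 d12 cells lay under it in their fibrillar sum (375 to 464 CPM). In these 4 cells the type IV sum was 448 to 2122 CPM and *Sox17*, a master factor of XEN cells, 188 to 1582 CPM. In the other 63 cells type IV had a median of 142 CPM with a highest value of 1417, and *Sox17* a median of 5.14 CPM with a highest value of 356. At d20, the cell with the highest fibrillar sum (425 CPM) had *Sox17* at 41.8 CPM, against a mean of 1008 in the other 37 cells, and without it the d20 means were 21.9 CPM for fibrillar and 0.54 CPM for *Col1a1*. Cells were picked singly by hand, no doublet caller was run, and the part of doublets or carried-over RNA in these cells was not tested.

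**Figure D5:**
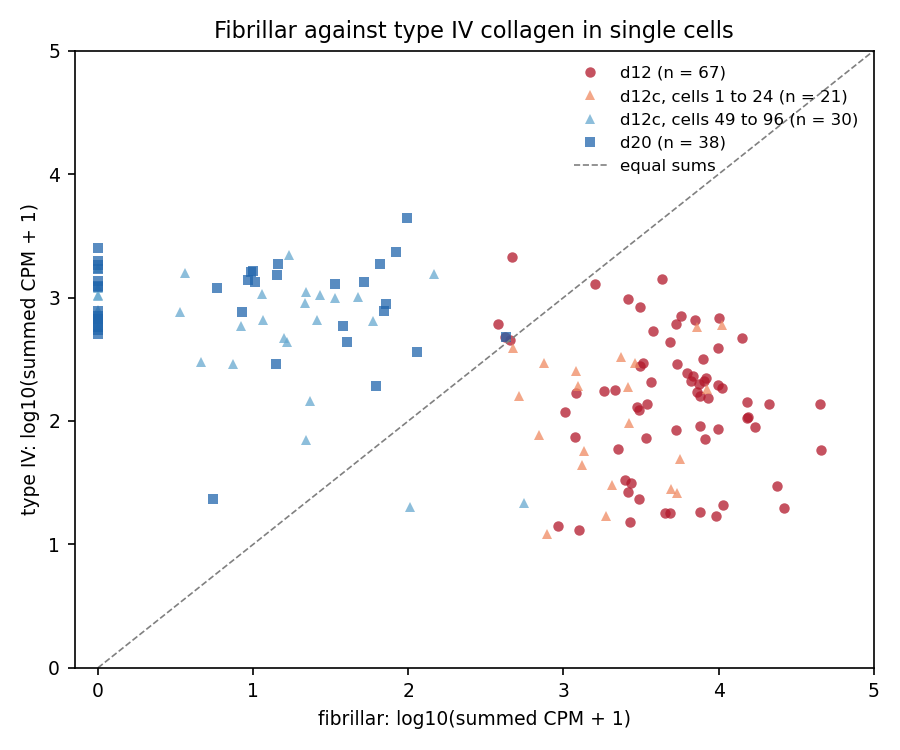
Fibrillar (horizontal axis) against type IV (vertical axis) collagen sum in each cell of d12, d12c (by running number) and d20, both as log10(summed CPM + 1); the dashed line marks equal sums. The d20 cells and 28 of the 30 d12c cells numbered 49 to 96 lie above the line, and 64 of 67 d12 cells and all 21 d12c cells numbered 1 to 24 below it.

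Chains of the same protein were related to different degrees across the cells of a time point. Spearman correlations are given as descriptions, since cells could not be traced to the sequenced samples. Each value is also divided by the depth of its cell. For *Col1a1* and *Col1a2* they were 0.53 to 0.94 in the 10 groups from d0 to d12, d8c among them, and 0.22 at d20, where 3 cells held both. *Col6a1* and *Col6a2* had 0.35 to 0.89 in the same 10 groups, and *Col6a1* and *Col6a3* 0.18 to 0.62. *Col5a1* and *Col5a2* had 0.066 to 0.66, and *Col1a1* and *Col3a1*, of different proteins, 0.079 to 0.86 with a median of 0.55. *Col4a1* and *Col4a2* had 0.32 to 0.70 over 11 groups, d12c left out, and 0.66 at d20. *Col8a1* and *Col8a2* (-0.01 to 0.28) and *Col15a1* with *Col18a1* (-0.11 to 0.31) were weakly related where at least 10 cells held both.

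Collagen chains are hydroxylated, glycosylated and folded in the endoplasmic reticulum, trimmed and crosslinked outside the cell, and sensed by receptors. Of 34 genes listed for these steps, 22 were tested between d0 and d20, where 1 rose and 7 fell (4.38% and 8.92% of all genes), and 23 between d12 and d20, where 1 rose and 12 fell (6.78% and 13.8% of all genes). The 7 were 5 of 8 extracellular genes tested, 1 of 12 genes that act inside the cell and 1 of 2 receptor genes. The 12 were 5 of 8 extracellular, 4 of 12 inside the cell and 3 of 3 receptor genes. *Lox*, a crosslinking enzyme, was at 457 CPM at d0, 220 at d12 and 0 UMIs at d20. *Pcolce*, which helps to cut the end of fibrillar procollagen, was at 388, 343 and 3.05 CPM, and *Loxl1*, another crosslinking enzyme, at 108, 63.5 and 0.26. *Adamts2*, the protease that cuts the other end, was at 12.1 CPM at d0, 445 at d8, 326 at d12 and 0.12 at d20, and rose by 5.34 from d0 to d12.

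*Bmp1*, the protease that *Pcolce* assists, was at 24.3 CPM at d0, 99.97 at d12 and 5.68 at d20, and rose by 2.81 from d0 to d12. *Itga11*, a receptor subunit for fibrillar collagen, rose by 2.71 over that time, from 4.18 to 36.03 CPM. The listed genes with the lowest differences from d0 to d12, none of them called, were *Lox* (-1.64), *Pcolce2* (-1.34), a relative of *Pcolce*, and *Ddr1*, a collagen receptor (-0.97). Inside the cell, *Fkbp10*, a folding helper of procollagen, fell by 5.13 from d12 to d20 (118.5 to 15.9 CPM), and *Plod3*, *P3h3* and *P4ha1*, which hydroxylate the chains, fell by less. *P4ha2*, a prolyl hydroxylase subunit, rose by 2.78 from d0 to d20, from 70.4 to 277 CPM, and by 2.67 from d12. The lysyl hydroxylases *Plod1* and *Plod2* went from 30.8 to 88.6 and from 50.5 to 92.8 CPM between d0 and d20 without passing 2, and *Colgalt1*, which adds galactose, had a difference of 0.42 from d12 to d20. The crosslinking enzyme *Loxl2* was at 664 CPM at d0 and 444 at d20 and *P4hb*, the other prolyl hydroxylase subunit, at 413 and 594. *Ppib*, usually an abundant transcript, was counted at only 0.2 to 5.1 CPM in all groups, and whether its counts cover the gene was not tested.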

How the data were processed

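Single cells were measured at 12 time point groups. Per the labels, the authors assigned reads to cells by barcode and, after trimming, aligned them to the transcriptome of mouse build mm9, where UMIs removed duplicates. The aligner is not given in the sources used here. The deposited counts are whole numbers of UMIs per gene and cell, with 92 ERCC spike-in RNAs, which made up 5.43% of the UMIs of kept cells. Gene names had turned into dates in places, and 4 such entries that shared a name were left out. A cell was kept if 4000 genes or more were detected. Its UMIs were divided by its total without spike-ins, and a pseudocount of 1 was added before log2. Thinning to 50000 UMIs was possible in 647 of 670 cells.

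No cell could be assigned to 1 of the 10 sequenced samples, so no count model was fitted and differences of mean log2(CPM + 1) over 2 were called without a test. On simulated data with known changes the calls recovered the changed genes. These changes were set well past the limit, in genes away from the floor and with the same spread for every gene. The simulation therefore cannot show how the calls behave for smaller changes, genes of few UMIs or the spread of real cells. The members, classes, lists and limits were chosen with earlier results of these data known. Collagen genes that reached 10 CPM were named with their values and the others by their highest level, and of the biosynthesis list the 3 largest rises and falls in each comparison, with *Loxl2*, *P4hb*, *Ppib*, *Fkbp10*, *Plod3*, *P3h3* and *P4ha1* and the cells and limit of 500 CPM chosen after their values were seen. Spike-in scaling multiplied UMIs per spike-in UMI by the median ratio of spike-in UMIs to other UMIs over the kept cells. *Mia3* of that list was not analysed here.

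Gene positions were read from the GENCODE M1 annotation of mm9 (NCBIM37), where 44 of 44 genes matched, 1 of them (*Col26a1*) through a RefSeq synonym. The software was Python 3.11.15, scipy 1.17.1, pandas 2.3.3 and numpy 2.4.6. TMM factors came from edgeR 4.0.16 and size factors from DESeq2 1.42.0, on counts summed by time point. Alternatives covered the filter on cells, scaling, thinning, pseudocount, limits, number ranges and averaging.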

Additional observations from a re-analysis of the deposited data

How the results depend on the processing

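Of 177 alternative values, 96 stayed close to the reported value and 81 moved. Counts of genes were close within a set fold change, and shares and sums only within their counting error. These rules are unlike, so the tally does not measure robustness. The 43 genes detected became 29 with a limit of 5 CPM, which counted as close. The fibrillar share at d0 counted as moved at 76.4% instead of 76.0%. The counts of calls are given first. From d12 to d20, 1 gene was higher instead of 2 with no filter on cells, with at least 6000 detected genes, with spike-in scaling or with log2 of the mean CPM. Over all genes, 661 of 9749 became 293 of 9288, 1185 of 10147, 211 of 8473 and 1355 of 13262 in that order. From d0 to d20, 0 were higher with spike-in scaling instead of 2, where 410 of 9352 genes became 95 of 9304. With log2 of the mean CPM 21 were lower instead of 12, where 834 of 9352 genes became 1213 of 12937. From d0 to d12, the 5 higher genes became 3 with cells numbered above 48 and 2 with spike-in scaling or a pseudocount of 10. Over all genes, 693 of 9611 became 688 of 9662, 216 of 9517 and 206 of 9611 in that order. The 5 became 9 with a pseudocount of 0.1 and 16 with a limit of 1, where 693 of 9611 genes became 1553 and 1901. The 1 lower gene became 3 with a pseudocount of 0.1 or a limit of 1, where 403 of 9611 genes became 821 and 1564. With log2 of the mean CPM 4 were lower, where 583 of 13058 genes were. From d12 to d20, 22 were lower with a pseudocount of 0.1 or a limit of 1, instead of 14, where 1348 of 9749 genes became 2947 and 3009. The cause was not tested for these changes.

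At d0 the fibrillar share, the type IV share and the summed mean were 76.4%, 6.20% and 4361 CPM with no filter on cells, 76.9%, 6.19% and 4127 with at least 2000 detected genes, 74.6%, 7.84% and 4058 with at least 6000, 76.3%, 6.25% and 3646 in cells 1 to 48, 75.6%, 7.01% and 4584 in cells above 48, 74.2%, 7.92% and 3544 from summed UMIs and 71.9%, 4.23% and 3672 from medians. At d12 they were 77.7%, 2.80% and 9730 with no filter, 78.5%, 2.97% and 10096 with at least 6000 genes, 79.9%, 2.64% and 10972 from summed UMIs and 61.2%, 1.82% and 8692 from medians, and the sum was 9812 with at least 2000 genes. The d12 shares were 76.6% and 3.28% in cells 1 to 48 and 80.4% and 1.95% in cells above 48. At d20 they were 3.798% and 90.4% with no filter and 3.28% and 90.2% with at least 2000 genes. With the sum they were 8.10%, 83.7% and 944.5 with at least 6000 genes, 0.745%, 93.6% and 1163 in cells above 48, 4.66%, 88.8% and 1041 from summed UMIs and 0.645%, 85.8% and 1215 from medians, and the sum was 1296 in cells 1 to 48. Divided by transcript length, the shares were 77.9% and 6.01% at d0 and 80.2% and 2.60% at d12, and type IV was 89.1% at d20. Without the cell of highest collagen sum they were 76.9% and 5.58% at d0 and 76.9% and 3.07% at d12, and type IV was 94.1% at d20.

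Scaling to spike-ins moved the median of all genes by -1.47 from d0 to d20, -1.16 from d0 to d12 and -0.37 from d12 to d20 on the log2 scale, and TMM by -0.16, 0.13 and -0.30. Scalings by gene, bounds for genes at 0 and values without single d20 cells were added after seeing the data. No paired analysis was possible because the cells carry no replicate number. Depth limits the late groups most, where 3 UMIs over the group stand for 0.364 CPM in d12c cells 49 to 96 and 0.341 CPM at d20.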
